A study of Mus musculus with 12 samples.

Results

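The 28 genes described here encode proteins of the cytosolic small ribosomal subunit (40S). They were taken by a fixed list of symbols (26 Rps genes, Rpsa and Fau), protein-coding genes only and without pseudogene copies, from the 43432 gene identifiers listed for the series. All 28 were found and all 28 passed the filter on low counts in each fit. The cells were adult neural stem cells (NSCs) of wild-type male C57BL/6 mice, taken from the subventricular zone at 6 to 8 weeks of age and grown for 4 days with the growth factors EGF and bFGF and with low (LF, 1.5 µM), median (MF, 10 µM) or high (HF, 80 µM) folic acid. MF was taken as the reference dose, and the question was how folate alters mRNA abundance and translation. Total mRNA and polysome mRNA (the pooled sucrose gradient fractions that carry more than 3 ribosomes per mRNA) were each sequenced as poly(A) RNA in 2 biological replicates per dose, the polysomes after a short incubation with cycloheximide, which holds ribosomes on the mRNA, which gave 12 libraries in 6 groups. The labels do not say that replicates came from separate animals or cultures, so p-values measure only the spread between these libraries.

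The small subunit binds the mRNA, scans it for the start codon and holds it while codons are matched to tRNAs. Its head, body and platform are built on the 18S rRNA, and the mRNA runs through the channel between head and body. Most mRNAs of ribosomal proteins begin with a run of C and T bases, the terminal oligopyrimidine (TOP) tract, through which their translation follows growth signals of the mTOR pathway. Folate supplies single-carbon units for making nucleotides and for methylating RNA, DNA and protein.

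A total library held 20506797 to 23593252 counts and a polysome library 24193468 to 28170296. One library stood apart. In a principal component analysis of the 6 polysome libraries, the leading component took up 53.4% of the variance and placed polysome LF replicate 2 at 77.2 and the other 5 between -32.7 and -3.28. For LF, the counts of members called by the main test are given with and without it. So are the medians of the members by GC content and by region of the subunit, and their correlation with GC. Other LF values include it unless stated. Neural stem cell markers summed to between 6063 and 7294 CPM (TMM-scaled counts per 1000000 counts) in total mRNA, against 286 to 318 CPM for neuron markers and 602 to 613 CPM for astrocyte markers. The stem cell sums rose with dose, at 6063 and 6177 CPM in LF, 6500 and 6594 CPM in MF and 6875 and 7294 CPM in HF. In polysome mRNA they were instead lowest in HF (5538 and 5868 CPM). Oligodendrocyte lineage markers in total mRNA summed to 424 and 443 CPM in LF, 464 and 477 CPM in MF and 498 and 530 CPM in HF. Of the microglia markers 3 of 6 were at 0 in every total library, and endothelial markers summed to at most 3.45 CPM. Mural and mesenchymal markers summed to between 695 and 1093 CPM in total mRNA and between 916 and 1622 CPM in polysome mRNA, with the lowest total values in HF, and oligodendrocyte lineage markers to 251 and 462 CPM in LF polysomes against 451 and 491 CPM in MF polysomes. Their part in the results below was not tested. In bulk samples such as these, fewer cells of a type and less RNA per cell cannot be told apart.

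Together the members took 1.3% to 1.42% of the counts of a total library. In polysome mRNA they took 1.63% and 1.79% in LF, 1.89% and 1.94% in MF, and 1.86% and 2.10% in HF. The LF polysome libraries therefore held the lowest shares of counts of the 6. By length-scaled values (TPM) LF replicate 1 was lowest at 5.44%, but LF replicate 2 (5.84%) lay above MF replicate 1 (5.82%) and HF replicate 2 (5.78%).

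For 7 members, annotated copies of the coding sequence took at least 5% of the reads in total or polysome mRNA, and values listed under the member alone are uncertain. The most abundant copy of each matched the member at 100% identity over 98.4% to 100% of its coding sequence. The counts were estimated by RSEM, which divides a read that fits several genes between them. Fau encodes a ubiquitin-like protein fused to a 40S protein near the decoding centre. As a mean per 1000000 counts of the library, the unit used for copies, it held 27.2 in total mRNA against 149 listed under its processed pseudogene Gm9843. Rps12, at the tip of the head, held 249 in total mRNA against 236 under Rps12-ps3, and in polysome mRNA 73.2 against 151. Rps27 itself held 6.01 in total mRNA and its paralog Rps27rt 252. Rps6, the target of S6 kinases, shared reads almost wholly in polysome mRNA. Its copy Rps6-ps4 was listed at 0 in all 6 total libraries and at 227 to 519 in the 6 polysome libraries, where the copies took 20% of the summed reads. The copies took 31.4% of the summed reads of Rps13, 35.2% of Rps23 and 10.8% of Rps16 in total mRNA. The same steps are described for both kinds of library, but whether RSEM was run with the same settings for both is not given in the sources used here, so listed polysome over total values of these 7 genes are uncertain for that reason too. For these genes the value summed with the copies is given where it changes a call, a direction or an overlap. The other 21 members shared under 1% of their reads with copies in either fraction.

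**Figure D1:**
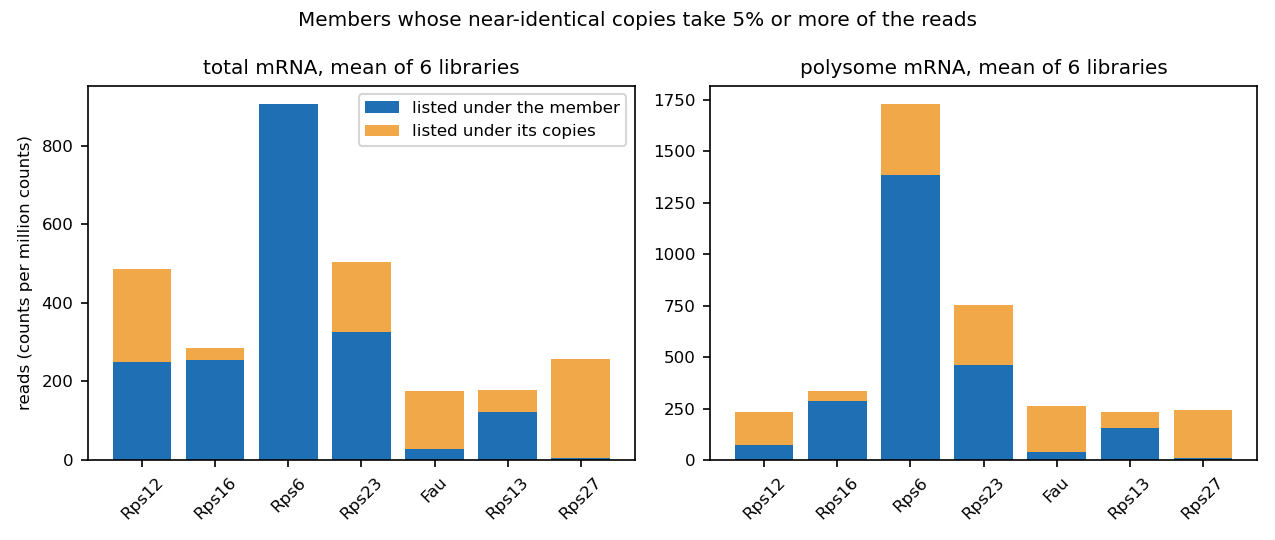
Reads listed under 7 members (blue) and under their near-identical copies (orange), in counts per 1000000 counts of the library (vertical axes, from 0), as the mean of the 6 total (left) and 6 polysome (right) libraries. The copies hold most of the reads of Fau and Rps27, and the copies of Rps6 hold reads in the polysome panel but not visibly in the total panel.

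Levels of different genes were compared as TPM, the authors' length-scaled values, over the 6 total libraries. Rps24 (3951 ± 136 TPM), Rps15 (3579 ± 195) and Rps18 (3313 ± 87.5) were the most abundant (SD, n = 6). The ranges of Rps24 and Rps15 overlapped between libraries, as did those of Rps15 and Rps18. Fau (148 ± 13.5 TPM), Rps20 (637 ± 25.6) and Rps13 (657 ± 30.6) were the lowest, and the ranges of Rps20 and Rps13 overlapped. Reads listed under the copies of Fau and Rps13 are not in these values. The other 22 members lay between 962 TPM (Rps29) and 2942 TPM (Rps9). TPM depends on the effective length used by RSEM. It averaged only 6.25 bases for Rps27 and 105 to 115 bases for Rps28, Rps29 and Rps21, so the TPM of these short mRNAs is imprecise. For Rps24 and Rps15 it averaged 204 and 221 bases, below their coding lengths of 402 and 438 bases, so their top ranks depend on it too. By CPM, which is not scaled for length, they averaged 476 and 470 in total mRNA, against 1230 for Rpsa.

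In total mRNA no member passed the test for a change with folate. Differences of LF from MF ran from -0.11 (Rps12) to 0.10 (Rps27) on the log2 scale, with a median of 0.03, and those of HF from MF from -0.39 (Rps27, at 3.59 to 6.72 CPM) to 0.16 (Rps29), with a median of 0.01. The edgeR quasi-likelihood test called 0 members in either comparison with MF (adjusted p under 0.05 and fold change above 1.2), where 0.00719% of all genes tested were called in LF and 0.0863% in HF (0.0288% higher and 0.0575% lower). At an unadjusted p under 0.05 there were also 0 members in both, against 6.27% and 6.98% of all genes, and DESeq2 and limma voom called 0 (DESeq2 gave no adjusted p for 1 member in HF). HF against LF gave 0 called members (1.79% of all genes, 0.805% higher and 0.985% lower) and 2 at an unadjusted p under 0.05 (12.6% of all genes), Rps27 and Rps19, both lower, with 0 called by DESeq2 and limma voom. In that comparison Rps29 and Rps21 were called higher without total LF replicate 2 (0.43 and 0.32), where 0.827% of all genes were called, and Rps27 was called lower without total HF replicate 2 (-0.88), where 2.53% were. Summed with its copies, Rps27 stood at 0.03 in HF against LF with all libraries in. Both HF libraries lay below both MF libraries for 3 members and above for 6 (18.4% and 19.9% of all genes), with Rps12 as a 7th above when summed with copies, and LF libraries lay below for 0 and above for 2 (17.1% and 18.1%).

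Most 40S mRNAs were more abundant in polysomes than in total mRNA. Over the 3 doses, 18 of 28 members were called higher in polysome mRNA and 4 lower, where 71.0% of all genes were called, 32.7% higher and 38.4% lower. The median of the members was 0.46 on the log2 scale against -0.09 for all genes. Rps27a, a ubiquitin fused to a protein of the head, rose most (1.13 ± 0.0901 SE, adjusted p = 1.22e-06), followed by the platform protein Rps3a1 (0.86 ± 0.0862, adjusted p = 6.54e-06) and the X-linked body protein Rps4x (0.79 ± 0.0748, adjusted p = 3.95e-06). Rps18 and Rps3, both of the head, rose by 0.78 and 0.76, and Rps9, Rps10, Rps23, Rpsa, Rps15a, Rps14 and Rps2 by 0.45 to 0.66. The members called lower were Rps12 (-2.12 ± 0.609, adjusted p = 0.00904), Rps29 (-1.07 ± 0.157, adjusted p = 0.000114), Rps21 (-0.77 ± 0.116, adjusted p = 0.000142) and Rps28 (-0.35 ± 0.0798, adjusted p = 0.00246). Summed with its copies, Rps12 stood at -0.97 ± 0.0774. Rps27 lost its call when summed with its copies (-0.06 ± 0.12, from 0.77 ± 0.177), while Rps6 moved from 0.71 to 1.04. Rps7 and Rps16 passed the adjusted p but not the fold threshold, and Rps16 summed with copies was called higher (0.34). The counts were again 18 and 4 without LF polysome replicate 2 (73.8% of all genes called), and 21 and 4 without replicate 1 (74.5%).

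The libraries showed these differences directly. Rps27a stood between 425 and 469 CPM in the 6 total libraries, and at 1044 and 1503 CPM in LF, 803 and 786 CPM in MF and 943 and 872 CPM in HF polysomes. The 2 fractions did not overlap at any dose. Rps29, a zinc-binding protein of the head, held 51.5 to 76.2 CPM in total mRNA and 16 and 21.6 CPM (LF), 40.1 and 42.8 CPM (MF) and 46.0 and 24.5 CPM (HF) in polysomes, again without overlap. Rps21 held 72.9 to 95.1 CPM in total mRNA and 40.8 to 57.9 CPM in polysomes. Rps29, Rps28 and Rps21 have the shortest coding sequences of the 28, at 171, 210 and 252 bases, and all 3 were called lower in polysomes. Across the members, the polysome over total difference rose with log2 coding length (Pearson r = 0.53, Spearman rho = 0.63, 28 genes that share the same libraries), whereas over all tested genes with a coding sequence the relation ran the other way (r = -0.37, 12982 genes). Members are short, with a median coding length of 439.5 bases against 1410 bases for all such genes, and after a trend on effective length was taken out the median of the members was 0.10, with 11 of 28 below 0. The part of length in the difference was not tested further.

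**Figure D2:**
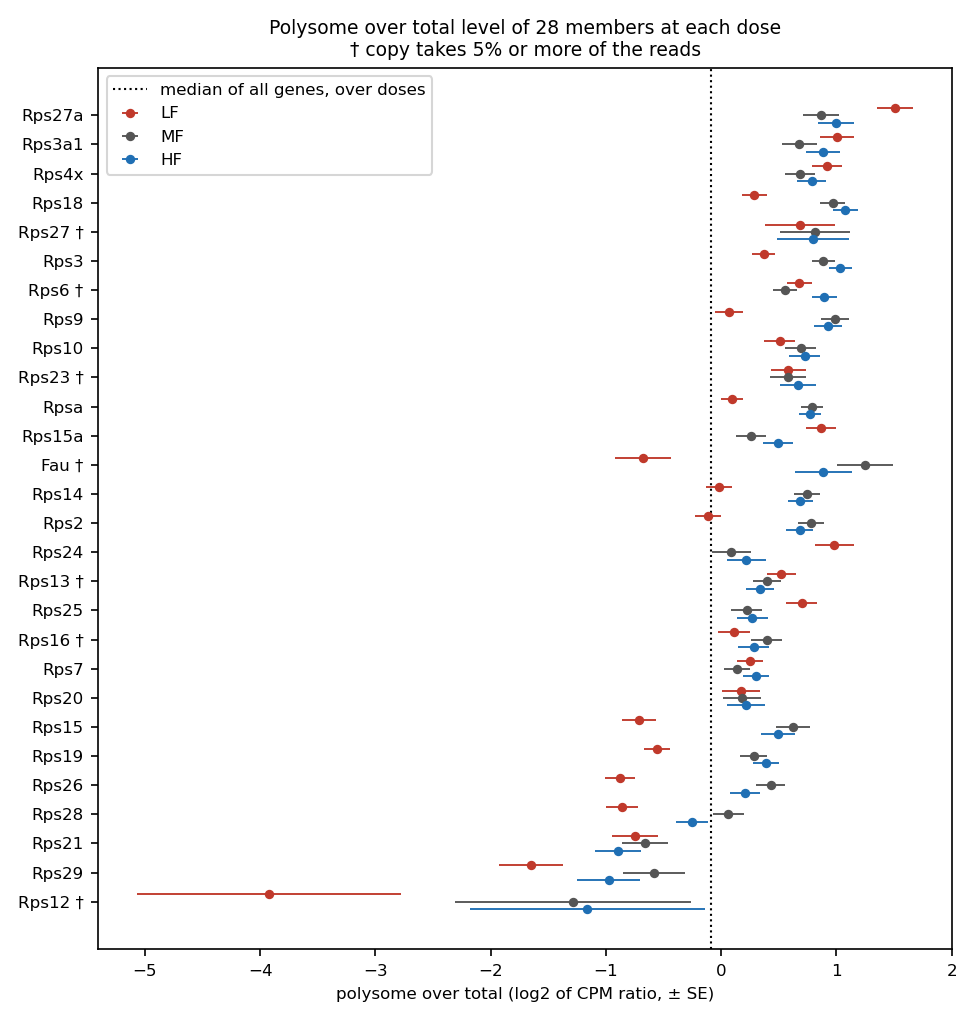
Polysome over total level of each member (log2 of the CPM ratio, horizontal axis) at LF (red), MF (grey) and HF (blue), with bars of 1 SE from the edgeR fit, ordered by the mean over doses. The dotted line at -0.09 is the median of all genes tested, and 23 of 28 members lie above 0 on average, with Rps12, Rps29 and Rps21 lowest. Red points sit far to the left of grey and blue ones for Rps26, Rps15 and Fau and to the right for Rps24 and Rps27a.

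By dose, 18 members were called higher and 1 lower in polysomes at MF (26% and 29.3% of all genes, 55.2% in all), 19 and 2 at HF (25.7% and 30.7%, 56.4% in all), and 12 and 8 at LF (25% and 28.5%, 53.6% in all). At HF the counts were 12 and 1 without total HF replicate 1 (40.9% of all genes called). At LF they were 12 and 7 without polysome LF replicate 2 (62.7% of all genes), 15 and 8 without polysome LF replicate 1 (66.7%), 7 and 7 without total LF replicate 1 (38.0%) and 11 and 5 without total LF replicate 2 (39.9%). Rps26, Rps15 and Fau were called higher in polysomes at MF (0.43, 0.62 and 1.25) and lower at LF (-0.87, -0.71 and -0.68). Fau at LF was not called when summed with Gm9843 (-0.29 ± 0.134, adjusted p = 0.0891), nor without polysome LF replicate 2 (listed value -0.29, adjusted p = 0.0821), whereas Rps26 and Rps15 were still called lower there (-0.90 and -0.54). Rps19 was called lower at LF (-0.56) and higher at HF (0.39). Rps28 (-0.86) and Rps29 (-1.65) were also called lower at LF, Rps29 again at HF (-0.98), and Rps21 at each dose (-0.75, -0.66 and -0.90 at LF, MF and HF). Rps12 was called lower at LF at a listed value of -3.92, which includes a polysome library listed at 0. Without that library, replicate 2, it stood at -2.93, and summed with copies at -1.22 ± 0.135, both called lower. Rps27 summed with copies was called higher at LF (0.56 ± 0.208) and at no other dose. Rps20 was called at none. Whether such dose differences exceed the spread is tested next as a change in translation efficiency (TE), the polysome over total ratio.

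The TE of Rps26 and Rps15 fell in LF relative to MF. These were the 2 members called out of 28 by edgeR, where 0.201% of all genes tested were called lower and 0.0347% higher, 0.236% in all. At an unadjusted p under 0.05 there were 16 members, 12 lower and 4 higher (15.8% of all genes). The TE difference of 18 members was below 0 and that of 10 above 0, and the median was -0.23 against 0.02 for all genes. Called members were 12 with DESeq2 (11 lower, 1 higher) and 4 with limma voom (Rps26, Rps15, Fau and Rps2, all lower), where DESeq2 called 4.55% and limma voom 0.319% of all genes. With library totals in place of TMM scaling, with a fit of the groups compared only, or with any 1 of the 10 libraries outside LF polysomes left out, the count was 0.

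Rps26 lines the channel where the mRNA leaves the subunit and contacts bases before the start codon. It lies on chromosome 10 (ENSMUSG00000025362, chr10:128624534-128626747, minus strand, mm10). In polysomes it held 117 and 122 CPM in LF, 295 and 311 CPM in MF and 273 and 229 CPM in HF. In total mRNA it held 203 and 236 CPM in LF, 230 and 220 CPM in MF and 207 and 228 CPM in HF. The LF polysome libraries lay below the other 4, and the total libraries overlapped. Its TE in LF was 2.47-fold below MF (log2 difference -1.30 ± 0.183 SE, edgeR adjusted p = 0.0334).

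Rps15, a protein of the head that is needed for export of the subunit precursor from the nucleus, lies on the same chromosome (ENSMUSG00000063457, chr10:80292453-80294114, plus strand). Its polysome level was 328 and 255 CPM in LF, 746 and 712 CPM in MF and 712 and 578 CPM in HF. Its total level was between 442 and 513 CPM in all 6 libraries. Its TE in LF was 2.53-fold below MF (-1.34 ± 0.211, adjusted p = 0.0484). Both calls sat close to the threshold, and over 21 alternatives the adjusted p ran from 7.76e-07 to 0.288 for Rps26 and from 1.93e-07 to 0.357 for Rps15, with 8 of 21 passing for each. The direction was down in all 21, between -1.41 and -1.19 for Rps26 and between -1.53 and -1.17 for Rps15.

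**Figure D3:**
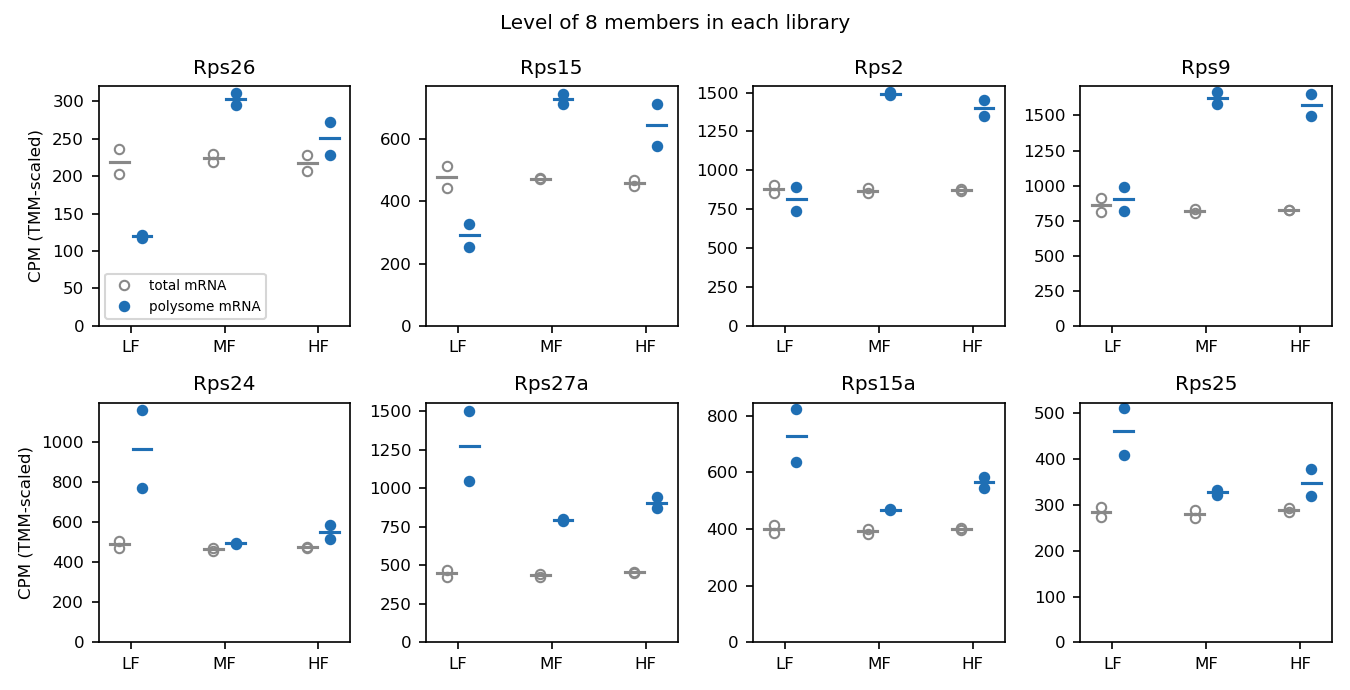
TMM-scaled level (CPM, vertical axis from 0) of 8 members in each of the 12 libraries, by dose, with total mRNA as open grey circles, polysome mRNA as filled blue circles and a short line at each mean. In the upper row the LF polysome points of Rps26, Rps15, Rps2 and Rps9 lie below the MF and HF points, and in the lower row those of Rps24, Rps27a, Rps15a and Rps25 lie above the MF points, while total mRNA stays level.

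Fau and Rps12 had listed TE values below those of Rps15 and Rps26 without passing the test. Fau held 21.6 and 11.5 CPM in LF polysomes against 64.0 and 65.8 CPM in MF (-1.92 ± 0.347, adjusted p = 0.0664). Summed with Gm9843, its polysome level was 146 and 131 CPM in LF, 379 and 372 CPM in MF and 317 and 275 CPM in HF. The sum was called (-1.40 ± 0.191, adjusted p = 0.0328), which made 3 members lower with copies summed. Rps12 had the lowest listed value (-2.64 ± 1.46, adjusted p = 0.402). It was listed at 29.5 CPM and at 0 in LF polysomes and at 93.7 and 106 CPM in MF. Its sum with copies was 199 and 201 CPM in LF and 238 and 262 CPM in MF (-0.34 ± 0.188, adjusted p = 0.405).

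The other members with lower TE in LF did not pass the test. Rps2, at the entry of the mRNA channel, held 892 and 737 CPM in LF polysomes against 1504 and 1483 CPM in MF (-0.90 ± 0.162, adjusted p = 0.0664). Rps9, its neighbour in the body, held 987 and 821 CPM against 1667 and 1581 CPM (-0.92 ± 0.171, adjusted p = 0.0738). For both genes the LF polysome libraries lay below the other 4. Rps19, the gene most often mutated in Diamond-Blackfan anaemia, stood at 346 and 299 CPM against 553 and 553 CPM (-0.84 ± 0.164, adjusted p = 0.0829), and the platform protein Rps14 at 674 and 616 CPM against 1077 and 1013 CPM (-0.77 ± 0.158, adjusted p = 0.0895). Rpsa, also known as the laminin receptor, held 1330 and 1277 CPM against 2112 and 2060 CPM (-0.70 ± 0.134, adjusted p = 0.0819). In each of these the LF and MF polysome libraries did not overlap.

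The head proteins Rps28, Rps18 and Rps3 lay at -0.92, -0.68 and -0.52 with an adjusted p between 0.0952 and 0.153. Rps28 held 38.8 and 42.7 CPM in LF, 81.1 and 76.3 CPM in MF and 71.1 and 58.1 CPM in HF polysomes. Rps18 held 790 and 764 CPM in LF, 1229 and 1199 CPM in MF and 1457 and 1235 CPM in HF polysomes. Rps3, at the entry of the mRNA channel with Rps2 and Rps9, held 1152 and 1117 CPM in LF, 1579 and 1497 CPM in MF and 1686 and 1710 CPM in HF polysomes. All 3 were without overlap between LF and MF. Rps29 lay at -1.07 ± 0.382 (adjusted p = 0.236), also without overlap.

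A middle group lay near 0 in TE. Rps10, of the head, held 283 and 338 CPM in LF, 356 and 386 CPM in MF and 397 and 357 CPM in HF polysomes (TE in LF -0.18 ± 0.186). Rps23, which reaches into the decoding centre, held 396 and 545 CPM in LF, 466 and 474 CPM in MF and 547 and 459 CPM in HF polysomes (0.00 ± 0.218). Its LF replicates lay on either side of MF. Rps20, of the head, held 265 and 358 CPM in LF and 292 and 308 CPM in MF (-0.01 ± 0.234). Rps13, of the platform, held 168 and 182 CPM in LF and 143 and 164 CPM in MF (0.13 ± 0.174). Rps16, Rps21, Rps7 and Rps6 lay between -0.28 and 0.13. Summed with copies, Rps16 stood at -0.45 ± 0.153 (adjusted p = 0.215) and Rps23 at -0.22 ± 0.195. Rps27 was listed within the same range, from under 5% of its summed reads. With its copies it held 267 and 468 CPM in LF polysomes, 191 and 192 CPM in MF and 204 and 183 CPM in HF, without overlap between LF and MF, and the TE difference in LF was 0.90 ± 0.294 (adjusted p = 0.202), the highest of the 28 members in that fit but not called.

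Other members had higher values in LF polysomes, also without a call. Rps24, of the body and another Diamond-Blackfan anaemia gene, held 772 and 1162 CPM in LF against 496 and 492 CPM in MF (TE 0.89 ± 0.236, adjusted p = 0.153). Rps27a stood at 0.64 ± 0.218 (adjusted p = 0.215). Rps15a, of the body, held 635 and 824 CPM against 467 and 469 CPM (0.61 ± 0.183, adjusted p = 0.18), and Rps25, of the head, 409 and 511 CPM against 322 and 332 CPM (0.47 ± 0.191, adjusted p = 0.277). Rps3a1 held 1546 and 2191 CPM against 1362 and 1449 CPM (0.33 ± 0.21), and Rps4x 1883 and 2487 CPM against 1789 and 1816 CPM (0.23 ± 0.182). For these 6 genes LF replicate 2, the library that stood apart, was the higher of the pair, and replicate 1 was above both MF libraries. Without LF polysome replicate 2 the TE differences of Rps3a1 and Rps4x were 0.05 and 0.02. Those of Rps24, Rps15a, Rps27a and Rps25 were 0.57, 0.41, 0.35 and 0.30.

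**Figure D4:**
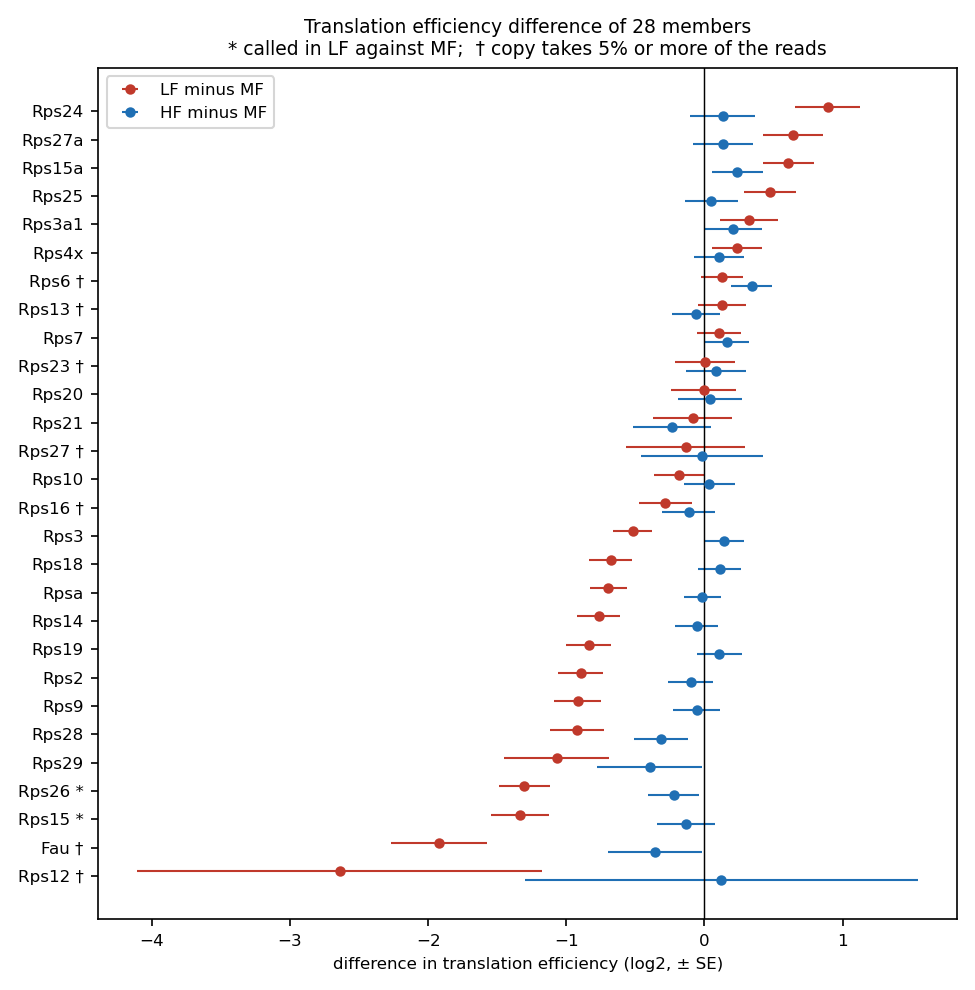
Difference in translation efficiency (log2, horizontal axis) from MF of each member in LF (red) and HF (blue), with bars of 1 SE from the edgeR fit, ordered by the LF value. LF values run from -2.64 (Rps12) to 0.89 (Rps24), with Rps26 and Rps15 called, whereas HF values stay between -0.40 and 0.34.

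In polysome mRNA alone, both LF libraries were below both MF libraries for 15 members (53.6%) and above them for 9 (32.1%), where 24.8% of all genes tested were lower in this way and 25.3% higher. By listed values Rps20, Rps21, Rps23 and Rps27 overlapped. Summed with copies, the counts were again 15 and 9, but Rps27 then lay above MF and Rps6 overlapped, at 1605 and 2016 CPM in LF against 1616 and 1682 CPM in MF. The edgeR test on polysome mRNA called 0 members in LF against MF (0.0223% of all genes), with 16 at an unadjusted p under 0.05 (12 lower, 4 higher, against 17.3% of all genes). DESeq2 called 11 members (10 lower, 1 higher) and 4.97% of all genes, and limma voom 0 members and 0.0596%. The count depended on which LF polysome library was kept. Without LF polysome replicate 2, 12 members were called in polysome mRNA (6.83% of all genes) and 13 for TE (6.76%). Without LF polysome replicate 1, 18 were called for each (50.5% and 46.2%). In those fits the remaining LF library was assumed to vary like the other groups. Both share the MF polysome libraries and, for TE, all total libraries, so calls made in both are not replication. How many of all genes were called in both is not given here. The 13 TE calls without replicate 2 were all among the 18 without replicate 1 and had the same direction: Fau, Rps12, Rps14, Rps15, Rps18, Rps19, Rps2, Rps26, Rps28, Rps3, Rps9 and Rpsa lower and Rps24 higher.

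No member passed the test in HF against MF. Differences of HF from MF in TE ran from -0.40 (Rps29) to 0.34 (Rps6), with a median of 0.04, and in polysome mRNA from -0.50 (Fau) to 0.36 (Rps6). The edgeR test called 0 members and 0% of all genes in both, with 1 member (Rps6) at an unadjusted p under 0.05 for TE (4.15% of all genes) and 0 in polysome mRNA (3.37%), and DESeq2 and limma voom called 0. Rps6 held 1670 and 1574 CPM in HF polysomes against 1194 and 1337 CPM in MF, without overlap, but summed with copies its TE difference was 0.21 ± 0.17. In polysome mRNA both HF libraries lay below both MF libraries for 7 members (5 with copies summed) and above for 9, where 28.1% and 26.3% of all genes did. With HF and MF polysome libraries alone, or with either LF polysome library left out, 1 member, Fau, was called lower (-0.50, adjusted p between 0.0338 and 0.0376), where 5.34%, 5.12% and 5.68% of all genes were called. Summed with Gm9843, Fau stood at -0.34 ± 0.176 in HF polysomes with all libraries in (adjusted p = 0.949).

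Between the extreme doses, TE in HF against LF gave 0 called members by edgeR (0.0971% of all genes, 0.0763% higher and 0.0208% lower) and 14 at an unadjusted p under 0.05 (11 higher in HF and 3 lower, against 14.7% of all genes). DESeq2 called 10 (4.99% of all genes) and limma voom 0 (0.146%). Rps19, Rps26 and Rps15 came closest, at 0.95, 1.08 and 1.2 with an adjusted p of 0.0563 each. Without LF polysome replicate 1 this count was 17 (37.6% of all genes), and without replicate 2 it was 13 (17.2%). In polysome mRNA 0 members were called (0.0149% of all genes), 14 passed an unadjusted p under 0.05 (12 higher and 2 lower, against 14% of all genes), and DESeq2 called 8 (2.94% of all genes) and limma voom 0 (0.0298%). Without LF polysome replicate 1 that count was 18 (39.3% of all genes), and without replicate 2 it was 13 (15.4%). Both HF libraries lay above both LF libraries for 16 members (15 with copies summed) and below for 5, where 21.1% and 20.4% of all genes did.

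TE differences in LF ran with the base composition of the coding sequence. GC content of the 28 coding sequences was between 45.5% (Rps15a) and 58.7% (Rps15), with a median of 53.4% against 52.9% for all tested genes with a coding sequence. Of the 14 members with the lowest GC (up to 53.3%), 4 had a TE difference below 0 in LF, and their median was 0.13. Of the 14 with the highest GC (from 53.6%), 14 were below 0, with a median of -0.87. These were 5 of 14 (median 0.04) and 14 of 14 (median -0.75) without LF polysome replicate 2, and without replicate 1 they were 2 of 14 (0.22) and 13 of 14 (-0.86). Pearson r between GC and the TE difference in LF was -0.72 over the members (Spearman rho = -0.85) and -0.40 over all 12982 genes. Over the members r was -0.78 without LF polysome replicate 2 (rho = -0.82), -0.19 without replicate 1 (rho = -0.86, with Rps12 listed at 0 in the remaining library) and -0.89 with copies summed. Over the 21 members with under 5% of reads in copies, r was -0.93. These points share the same libraries, and r is given as a description.

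The 2 LF polysome libraries differed here in what the rest of the genes did. Against the MF polysome mean, r with GC in LF replicate 1 was -0.78 over the members and -0.08 over 12565 genes. In LF replicate 2 it was -0.40 over the members (rho = -0.86, with Rps12 listed at 0) and -0.66 over all genes. In the HF libraries, set against the same MF mean, r was -0.59 in each over the members and -0.40 and -0.47 over all genes, and between the MF replicates it was 0.16 over both. For TE in HF against MF, which shares the MF libraries, r over the members was -0.70. Taking out a trend on GC fitted to all genes left the TE median in LF at -0.24, with 21 of 28 members below 0, and narrowed the interquartile range of the members from 1.03 to 0.59. The part of base composition in the LF differences was not tested.

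**Figure D5:**
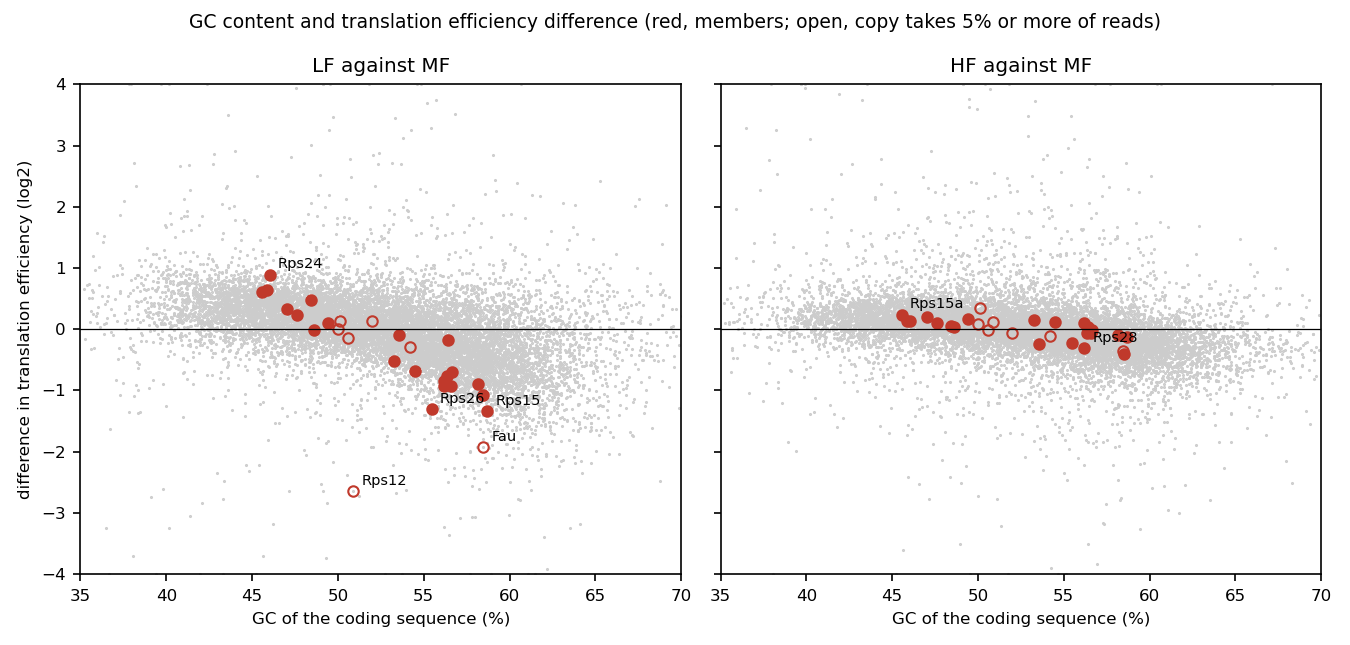
GC content of the coding sequence (horizontal axis, %, drawn between 35 and 70) against the TE difference from MF (log2, vertical axis, drawn between -4 and 4) in LF (left) and HF (right), with the members in red (open where copies take 5% or more of the reads) and all genes tested in grey. In LF the members run downward from Rps24 at the left to Rps15 at the right (r = -0.72), and in HF they lie between -0.40 and 0.34.

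Over the whole coding sequence G or C filled 84.9% of the last codon positions, where base composition can vary most freely, in Rps15, 60.3% in Rps26, 54.5% in Rps24 and 52.7% in Rps15a. The first 10 codons are shown for Rps26, which was called, and for Rps24 and Rps15a, which had higher values in LF, with the last base of each codon in capitals. In the 10 codons shown G or C filled 5, 7 and 5 of 10 of these positions, so this short stretch alone does not separate Rps26 from Rps24 and Rps15a. The stretch of Rps15, the other called member, is not shown. The sequences are bases 1 to 30 of the coding sequence in GENCODE M21, written 5′ to 3′.
Rps26: atGacCaaAaaAagAagAaaCaaCggTcgC
Rps24: atGaaTgaCacAgtAacCatCcgGacCagG
Rps15a: atGgtGcgAatGaaTgtTctGgcGgaTgcT

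The starts of the genes were also compared, since a TOP tract lies there. RefSeq starts (GRCm38.p6) were at hand for 24 of 28 members. In a window of 30 bases, from 10 before to 20 after the start on the strand of the gene, 15 of these 24 genes (62.5%) held an unbroken run of at least 6 C or T bases in any order at 1 or more of their starts, against 32.1% of all 27025 genes in the table. Printed are 4 members with lower and 4 with higher LF polysome values, chosen with those values known, from the first start listed for each, with the longest run in capitals. The windows are Rps26 at chr10:128626487-128626516 (minus strand), Rps15 at chr10:80292421-80292450 (plus), Fau at chr19:6057937-6057966 (plus), Rps2 at chr17:24720053-24720082 (plus), Rps24 at chr14:24490668-24490697 (plus), Rps15a at chr7:118116128-118116157 (minus), Rps25 at chr9:44407704-44407733 (plus) and Rps3a1 at chr3:86142649-86142678 (minus).
Rps26: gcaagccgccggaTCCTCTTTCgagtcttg
Rps15: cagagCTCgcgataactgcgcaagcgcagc
Fau: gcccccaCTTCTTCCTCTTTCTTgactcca
Rps2: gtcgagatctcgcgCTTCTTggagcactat
Rps24: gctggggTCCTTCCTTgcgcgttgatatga
Rps15a: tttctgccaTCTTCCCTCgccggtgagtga
Rps25: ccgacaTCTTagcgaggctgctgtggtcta
Rps3a1: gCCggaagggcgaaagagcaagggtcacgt

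The longest run was 9 bases in Rps26, 3 in Rps15, 16 in Fau and 6 in Rps2, all with lower values in LF polysomes, and 9 in Rps24, 9 in Rps15a, 4 in Rps25 and 2 in Rps3a1, all with higher values. At the listed starts, long and short runs thus occurred among both. These starts can differ from the gene bounds in GENCODE M21. The window of Rps15 lies wholly before its gene (from chr10:80292453), and every other window printed lies inside its gene. Those genes are Rps24 (chr14:24487125-24496959), Rps26 (chr10:128624534-128626747), Rps2 (chr17:24718116-24721929), Rps25 (chr9:44407139-44410427), Fau (chr19:6057844-6059524), Rps15a (chr7:118104372-118116188) and Rps3a1 (chr3:86137940-86142702). A run in this window is a description of the letters at the listed start, and starts in use in these cells were not measured.

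Within the subunit, TE in LF was below 0 for 10 of 12 members of the head (median -0.60, 1 called lower, Rps15). It was below 0 for 5 of 10 of the body (median -0.04, 0 called) and 3 of 6 of the platform (median -0.02, 1 called lower, Rps26). Of all genes tested, 6966 of 14421 were below 0, with a median of 0.02. The 5 body members below 0 (Rpsa, Rps2, Rps9, Rps21 and Fau) were all among the 14 members with the highest GC, which were all below 0. Of the 14 members with the lowest GC, 4 were below 0. Region and GC content were not tested apart. The medians were -0.58, -0.29 and -0.31 without LF polysome replicate 2, and without replicate 1 they were -0.63, 0.15 and 0.19, so the body and platform values depended on which LF library was kept. With copies summed they were -0.48, -0.16 and 0.13, and Fau was then called lower. Of 47 proteins of the large subunit (60S), 5 were called lower and 0 higher, against 0.201% and 0.0347% of all genes. Of these 47, 31 were below 0, with a median of -0.25. None of 47 tested 40S assembly factors, 21 initiation factors that act on the 40S, 17 other TOP mRNAs or 32 proteins of the mitochondrial small subunit was called by edgeR, with medians of 0.02, 0.15, -0.001 and 0.03. For polysome over total mRNA over the 3 doses, 36 of the 47 60S proteins were called higher and 4 lower (median 0.60). Of the 32 mitochondrial small subunit proteins, 28 were called higher and 0 lower (median 0.99). Among all genes 32.7% were called higher and 38.4% lower.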

How the data were processed

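RNA-seq gene tables of 6 total and 6 polysome libraries of mouse NSCs were used. According to the labels and methods of the study, the authors trimmed the reads, aligned them to mm10 with Bowtie2 2.2.9 and estimated expected counts with RSEM 1.3.0. The strand setting and annotation given to RSEM are not given in the sources used here. The deposited expected counts were rounded for all tests, and 4.04% to 5.95% of the listed values of a library were not whole. The deposited TPM values were used only to compare levels between genes and for the TPM shares of the members. The effective length in the deposited tables, an other measurement, was used only to describe length. The FPKM values that the authors computed with RSEM and deposited beside them were not used.

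Of 43432 identifiers, 42548 matched GENCODE M21 (also mm10), from which symbols, positions and coding sequences came. The test was that of edgeR 4.0.16 in R 4.3.3 (TMM scaling, filterByExpr, robust quasi-likelihood F test, Benjamini-Hochberg adjustment over all genes tested), and every adjusted p comes from it except where DESeq2 or limma is given. Genes were called at the thresholds of the study (adjusted p below 0.05, fold above 1.2). The 6 total libraries (13912 genes) and the 6 polysome libraries (13433 genes) were fitted with 3 residual degrees of freedom each. All 12 libraries (14421 genes, 6 residual degrees of freedom) were fitted for polysome against total mRNA and for TE, which was tested as an interaction in 1 model over both kinds of library. The biological coefficient of variation was 0.0433, 0.231 and 0.164. CPM values are scaled with the TMM factors of the fit of all libraries. The study used DESeq2 and, for TE, Xtail, which was not used here. DESeq2 1.42.0 and limma 3.58.1 were alternatives.

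Copies were found with BLAST 2.17.0 (at least 90% identity over 50% of the coding sequence of the member). Trends on length and GC were fitted by lowess with a span of 0.3. No molecular identifiers were counted, so reads are not independent molecules. Replicates differed by more than sampling noise in every group (chi-square over degrees of freedom at least 2.70). The tests were tried on simulated data with known changes, where every library had the same spread, unlike the LF polysomes here. How many changes were recovered at the spread of these data is not given, so counts of 0 do not show that nothing changed. Named with full values were members called in any comparison (the 14 with the smallest adjusted p), the 3 highest and 3 lowest in each polysome and TE comparison with MF and over doses, and the 3 highest and lowest by TPM, which gave 24 names. Further members were named with their values where a group was listed. The members, lists and tests were chosen with earlier results of these data known. A few items are not reported here.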

Additional observations from a re-analysis of the deposited data

Results flagged for a closer look

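The effect of LF relative to MF differed between polysome and total mRNA for 2 members, by the interaction test in edgeR over all 12 libraries. Rps26 had a log2 difference of -1.30 (SE 0.183, adjusted p = 0.0334), with both LF polysome libraries below both MF polysome libraries. Rps15 had a log2 difference of -1.34 (SE 0.211, adjusted p = 0.0484), again with both LF libraries lower. Groups held 2 libraries each, too few for the test of a single outlying value within a group. Without LF polysome replicate 2, the library that stood apart, the differences were -1.33 and -1.17. That fit holds 1 LF polysome library, which gives no spread of its own. Neither gene was called with library totals, with the replicate block or with the groups compared only.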

How the results depend on the processing

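Precision was limited by 2 libraries per group and by the spread between the LF polysome replicates, whose members differed by a median of 0.30 on the log2 scale against 0.07 for MF polysomes. The counts of called members in total LF against MF, total HF against MF, TE in HF against MF, and polysome against total mRNA at MF and over doses stayed within 1.5 times under every alternative run. TE in LF against MF (2 called, 0.236% of all genes) gave 12 with DESeq2 (4.55%), 4 with limma voom (0.319%) and 5 with RLE size factors (0.374%). It gave 7 with no filter (1.05%). With library totals (0.0277%), the groups compared only (0.0281%) and the replicate block (0.0347%) it gave 0. Without 1 library it ranged from 0 to 18, with 18 and 13 when LF polysome replicate 1 or 2 was left out and 0 for the other 10 libraries. Polysome LF against MF (0 called) gave 11 with DESeq2, 11 with no filter and 5 with the replicate block, and 0 to 18 without 1 library. Polysome HF against LF (0 called) gave 8 with DESeq2, 9 with no filter and 1 with the replicate block, and 0 to 18 without 1 library. TE in HF against LF (0 called) gave 10 with DESeq2, 2 with RLE size factors and 7 with no filter, and 0 to 17 without 1 library. Polysome HF against MF (0 called) gave 1 with the groups compared only and 0 to 1 without 1 library. Total HF against LF ranged from 0 to 2 without 1 library. Polysome against total mRNA at LF (20 called) gave 9 with the groups compared only, and at HF (21 called) 13 to 26 without 1 library. Shares of all genes called moved too. For polysome LF against MF they were 0.0223% by the edgeR test, 2.71% with no filter and 1.72% with the replicate block. For polysome HF against LF they were 0.0149%, 1.26% and 0.305% in the same order. For TE in HF against LF they were 0.0971%, 0.270% with RLE size factors and 0.858% with no filter. At LF, polysome against total mRNA gave 53.6%, and 24.9% with the groups compared only. At HF it gave 56.4%. The share at HF also moved when 1 library was left out, down without total HF replicate 1 and up without either LF polysome library. Fewer samples entered the fits that left out libraries or groups, and for the other settings the cause was not tested.

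Whether replicate numbers pair the samples is not known. No label ties a number to an animal or day, and over 15 pairs of groups the correlation of deviations ran from -0.14 to 0.14. With the replicate block, the share of all genes called rose in polysome LF against MF (0.0223% to 1.72%) and total LF against MF (0.00719% to 0.259%). It fell for TE in LF against MF (0.236% to 0.0347%). Summing Rps27 with its copies turned its polysome over total difference from higher to lower, to -0.34 at MF, -0.40 at HF and -0.057 over doses, and none of these was called. The sum with copies was chosen after seeing the data, as was the trend on GC.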
